A study of Homo sapiens with 8 samples.

Results

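The mRNAs described here encode the ubiquitin-specific proteases (USPs), the largest family of human deubiquitinases. They were taken by name, as every gene symbol made of USP and a number, with or without a final X. This gave 51 of the 59414 genes in the count table of the sort. Of these, 46 were listed in the tables of editing scores of the sort and 44 in those of the knockdown.

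All libraries came from HEK293T cells, an established human embryonic kidney line, that carried a pair of RNA editors used to mark mRNAs of processing bodies (P-bodies). TRIBE marks an RNA by adenosine-to-inosine (A-to-I) changes and STAMP by cytidine-to-uridine (C-to-U) changes. The 4 groups of 2 libraries each were sorted P-bodies, made from 50 ng of RNA and labelled as total RNA, cytosol, made from 100 ng and labelled as cytoplasmic RNA, and siEDC4 and siNC, each made from 500 ng and labelled as polyA RNA. siEDC4 is an siRNA against EDC4, a scaffold of the mRNA decapping machinery, and siNC is the control siRNA. Fraction, RNA type and input amount went together in the sort and cannot be told apart. No library of cells without the editors was used here, so a score also holds base changes from any other source. The libraries are numbered 1 and 2 within each group, and the labels give that number as a batch. The labels do not say whether the 2 libraries of a group are separate cultures, and the p-values below then cover only library-to-library spread, which may be technical.

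USPs are cysteine proteases that cut ubiquitin, a small protein tag, from other proteins or from ubiquitin chains. By removing the tag they spare proteins from the proteasome or switch off signals carried by ubiquitin on histones, receptors and DNA repair factors. P-bodies are cytoplasmic granules that hold repressed mRNAs together with decapping and repression proteins, and mRNAs poor in G and C are known to gather in them.

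The catalytic cysteine of a USP lies in a conserved stretch called the cysteine box. The coding sequence of 38 of the 51 members held the protein motif searched for in it, in which asparagine, any residue, glycine, asparagine, then serine, threonine or alanine, precede the cysteine. USP39, a splicing factor of this family that lacks protease activity, was among the 13 without a match, and so were USP7, USP9X and USP10. The search was for this pattern only, so a missing match does not show a lack of activity. Windows of 15 codons around the box are given for 4 pairs of related genes, because related proteins were here written with different codons and these pairs also differed in the sort. The cysteine codon is in capitals. The sequences are those of the transcript with the longest coding sequence in GENCODE v29 (hg38), read 5′ to 3′ on the coding strand.
USP38: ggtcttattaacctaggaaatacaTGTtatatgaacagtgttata
USP35: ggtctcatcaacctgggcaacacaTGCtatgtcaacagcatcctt
USP44: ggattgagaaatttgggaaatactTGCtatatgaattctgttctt
USP49: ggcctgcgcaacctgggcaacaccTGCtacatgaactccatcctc
USP33: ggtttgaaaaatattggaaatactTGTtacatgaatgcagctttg
USP20: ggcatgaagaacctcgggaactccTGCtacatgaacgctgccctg
USP15: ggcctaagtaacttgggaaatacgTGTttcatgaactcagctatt
USP4: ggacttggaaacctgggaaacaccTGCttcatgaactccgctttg
Of the 15 codons in a window, 3 ended in G or C in USP38 and 11 in USP35. The same count was 4 in USP44 and 15 in USP49, 4 in USP33 and 14 in USP20, and 7 in USP15 and 10 in USP4. The genes lie, in hg38 as the count table gives them, at chr4:143184917-143223874 (USP38), chr11:78188812-78215232 (USP35), chr12:95516560-95551476 (USP44), chr6:41789896-41895361 (USP49), chr1:77695987-77759852 (USP33), chr9:129834698-129881828 (USP20), chr12:62260338-62417431 (USP15) and chr3:49277144-49340712 (USP4). Each window is part of a coding exon sequence as joined in the transcript.

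The sort libraries held 21186963 to 23716926 counts each, the editing tables of the sort 12048147 to 15947999 reads per library and those of the knockdown 5697417 to 6294767. All 7 of the HEK293T markers chosen here exceeded 1 CPM (counts scaled to a common library size by TMM, used throughout), with a summed level of 301.8 to 487.3 CPM in the sort libraries. Of 5 fibroblast markers 3 did so, the collagens COL1A1 and COL3A1 and LUM, with a sum over the list of 16.4 to 30.4 CPM. None of 6 blood markers and none of 3 hepatocyte markers exceeded 1 CPM, with sums of 0.952 to 1.96 CPM and 0.0522 to 0.453 CPM and with 2 and 1 of them at 0 in every library. The sorted libraries differed from each other more than the cytosol libraries did, with a chi-square per degree of freedom over all genes of 22.5 against 3.00.

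USP mRNAs took a larger share of the reads in sorted P-bodies than in cytosol. Their summed level was 7383 and 8668 CPM in sorted P-bodies 1 and 2, and 4302 and 4458 CPM in cytosol 1 and 2. Of 51 members, 46 had counts enough to be tested with edgeR's quasi-likelihood test, and at an adjusted p under 0.05 the sorted libraries were higher in 30 and lower in 6 of them. The background was 28.8% higher and 29.0% lower among the 18745 genes tested, and the counts in the role groups and lists below stand beside these shares. The median log2 fold change of the members was 0.66, against -0.03 for all genes tested. Within batches the members' median was 0.62 in batch 1 and 0.67 in batch 2, and 41 of 46 members had the same sign in both. In bulk RNA, more molecules of an mRNA in P-bodies and fewer molecules of the other RNAs cannot be told apart.

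The 5 members not tested were USP6, USP26, USP29, USP41 and USP50, with at most 3, 5, 1, 5 and 3 counts in any library. USP41 is a near-identical copy of USP18, and USP6 derives from USP32, so reads of these pairs could be divided between copies. How reads with several matches were treated is not given in the sources used here. The pseudogene USP32P3 had 153 and 137 counts in sorted P-bodies, against 90 and 85 counts in cytosol, which limits what the USP32 value says. Whether counting used strand is not given either, and reads of USP2 and its antisense gene USP2-AS1, with 53 and 61 counts in sorted P-bodies, against 100 and 110 in cytosol, cannot then be told apart.

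USP15, which acts on receptor-regulated SMAD proteins in TGF-beta signalling, had the largest difference of all members. It reached 266.2 and 379.6 CPM in sorted P-bodies, against 48.8 and 55.4 CPM in cytosol. The groups did not overlap, and USP15 was 6.20-fold higher in sorted P-bodies (log2 fold change 2.63 ± 0.17, edgeR adjusted p = 4.32e-06). Its relatives USP4 and USP11 differed less. USP4, also a regulator of TGF-beta and NF-kB signals, had 136.3 and 126.0 CPM in sorted P-bodies, against 80.1 and 79.5 CPM in cytosol (log2 fold change 0.72 ± 0.10). USP11 had 208.2 and 189.4 CPM in sorted P-bodies, against 142.5 and 152.5 CPM in cytosol (log2 fold change 0.43 ± 0.11). Among the 9 tested members grouped under signalling, 7 passed as higher and 2 as lower. USP34, which stabilises axin in the Wnt pathway, had 505.6 and 758.6 CPM in sorted P-bodies, against 178.3 and 182.2 CPM in cytosol (log2 fold change 1.81 ± 0.18), with sorted P-bodies 2 well above sorted P-bodies 1. USP9X, a large regulator of endocytosis and signalling and the member with the most reads, had 976.4 and 1079 CPM in sorted P-bodies, against 648.3 and 674.3 CPM in cytosol, a rise of 1.55-fold. The 2 that fell were USP2 and USP18. USP2, a regulator of cyclin D and the circadian clock, had 17.5 and 19.8 CPM in sorted P-bodies, against 23.0 and 22.5 CPM in cytosol (log2 fold change -0.29 ± 0.11, edgeR adjusted p = 0.0497, and 0.051 with the batch as a block). USP18, which removes the ubiquitin-like ISG15, had 10.2 and 7.67 CPM in sorted P-bodies, against 13.9 and 15.1 CPM in cytosol, 1.61-fold lower in sorted P-bodies (edgeR adjusted p = 0.00389).

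The 3 enzymes that are activated by the WD-repeat protein WDR48 were all higher, as were 30 of the 46 members tested. USP1, which deubiquitinates FANCD2 and PCNA in DNA repair, had 458.1 and 606.0 CPM in sorted P-bodies, against 165.9 and 189.9 CPM in cytosol. USP12 had 108.2 and 123.3 CPM in sorted P-bodies, against 35.9 and 35.3 CPM in cytosol, and its close relative USP46 had 134.3 and 166.1 CPM in sorted P-bodies, against 43.9 and 41.7 CPM in cytosol. In each of the 3 every sorted library lay above every cytosol library, at 2.99-fold, 3.25-fold and 3.51-fold for USP1, USP12 and USP46. WDR48 itself also rose (log2 fold change 1.06 ± 0.11, edgeR adjusted p = 2.8e-05). It is among the 11 cofactors counted below, of which 6 were higher and 3 lower.

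Of 9 chromatin enzymes, 4 were higher and 2 lower, where 28.8% and 29.0% of all genes were. USP16, a histone H2A deubiquitinase, had 161.6 and 277.8 CPM in sorted P-bodies, against 54.2 and 60.4 CPM in cytosol (log2 fold change 1.94 ± 0.22). USP44 and USP49 both act on histone H2B, and they parted in the sort. USP44 had 76.0 and 73.1 CPM in sorted P-bodies, against 23.8 and 23.9 CPM in cytosol, 3.12-fold higher in sorted P-bodies (edgeR adjusted p = 3.34e-06). USP49 had 37.1 and 39.9 CPM in sorted P-bodies, against 43.7 and 42.2 CPM in cytosol, without overlap, and did not pass (log2 fold change -0.16 ± 0.10, edgeR adjusted p = 0.196). USP22, the deubiquitinase of the SAGA coactivator, was lower, at 224.1 and 206.2 CPM in sorted P-bodies, against 274.5 and 281.6 CPM in cytosol (log2 fold change -0.37 ± 0.11). USP21, another histone H2A deubiquitinase, fell as well, with 42.1 and 38.1 CPM in sorted P-bodies, against 59.3 and 56.1 CPM in cytosol (log2 fold change -0.52 ± 0.10). USP51 and USP27X can take the place of USP22 with the same cofactors. USP51 rose, with 10.2 and 13.7 CPM in sorted P-bodies, against 4.82 and 4.91 CPM in cytosol, while USP27X overlapped, at 7.43 and 10.02 CPM in sorted P-bodies, against 10.6 and 9.78 CPM in cytosol. USP7, which stabilises MDM2 and p53, overlapped too, with 228.7 and 217.6 CPM in sorted P-bodies, against 224.3 and 237.4 CPM in cytosol.

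Of the 4 RNA-linked members USP39 passed as lower and none passed as higher, though USP10 lay close to the threshold. USP39 had 54.4 CPM in both sorted libraries, against 94.5 and 103.0 CPM in cytosol. The groups did not overlap, and USP39 was 1.82-fold lower, the strongest fall of the family (log2 fold change -0.86 ± 0.10, edgeR adjusted p = 8.02e-05). USP10, a partner of the stress granule protein G3BP1, had 221.2 and 247.3 CPM in sorted P-bodies, against 187.5 and 197.2 CPM in cytosol. Its groups did not overlap, but it missed the threshold (log2 fold change 0.28 ± 0.11, edgeR adjusted p = 0.0528). USP10 passed as higher with DESeq2 (0.32, adjusted p = 0.048) and by edgeR without sorted P-bodies 1 (0.35, adjusted p = 1.6e-07) or 2 (0.18, adjusted p = 0.0091), and not in the other alternatives, where edgeR's adjusted p was 0.081 to 0.52. USP36, a nucleolar enzyme, overlapped at 68.9 and 72.0 CPM in sorted P-bodies, against 72.5 and 69.9 CPM in cytosol. Its relative USP42 did not overlap but was close, at 61.7 and 61.6 CPM in sorted P-bodies, against 59.5 and 57.3 CPM in cytosol (log2 fold change 0.08 ± 0.10, edgeR adjusted p = 0.514).

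All 3 members that act at the proteasome or on free ubiquitin chains were higher. USP13 had 85.8 and 86.3 CPM in sorted P-bodies, against 39.5 and 42.8 CPM in cytosol, 2.09-fold higher. Its relative USP5, the main enzyme for unanchored chains, had 108.5 and 94.5 CPM in sorted P-bodies, against 75.6 and 80.1 CPM in cytosol, 1.30-fold higher. USP14, which sits on the proteasome, had 146.6 and 172.4 CPM in sorted P-bodies, against 89.2 and 99.7 CPM in cytosol, 1.69-fold higher. Of the 6 tested members of membranes and organelles, 4 were higher and 1 lower. USP8, an endosomal enzyme, had 92.8 and 147.9 CPM in sorted P-bodies, against 38.8 and 42.8 CPM in cytosol. USP30, bound to the outer mitochondrial membrane, fell, with 32.9 and 28.3 CPM in sorted P-bodies, against 40.2 and 39.5 CPM in cytosol (log2 fold change -0.38 ± 0.11). USP33 had 270.5 and 288.6 CPM in sorted P-bodies, against 147.5 and 152.0 CPM in cytosol, 1.87-fold higher, while its relative USP20 overlapped at 35.2 and 31.4 CPM in sorted P-bodies, against 32.8 and 33.5 CPM in cytosol.

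USP53 and USP54, long annotated as lacking activity, both rose. USP53 had 167.6 and 285.8 CPM in sorted P-bodies, against 47.7 and 51.1 CPM in cytosol, 4.59-fold higher, and USP54 had 114.1 and 118.1 CPM in sorted P-bodies, against 69.8 and 76.5 CPM in cytosol, 1.59-fold higher. Of the 10 tested members in the group of cell cycle, DNA damage and turnover, 7 were higher and none lower. USP47, which acts on the repair polymerase POLB, had 212.8 and 317.6 CPM in sorted P-bodies, against 63.9 and 72.4 CPM in cytosol (log2 fold change 1.96 ± 0.18). USP37, which stabilises cyclin A, had 319.8 and 392.7 CPM in sorted P-bodies, against 94.2 and 91.9 CPM in cytosol (log2 fold change 1.94 ± 0.13). USP38 had 136.3 and 168.4 CPM in sorted P-bodies, against 55.8 and 60.8 CPM in cytosol, 2.61-fold higher. Its relative USP35 had 10.9 and 12 CPM in sorted P-bodies, against 14.2 and 13.4 CPM in cytosol and did not pass (log2 fold change -0.27 ± 0.12, edgeR adjusted p = 0.0891). USP28, a stabiliser of MYC, overlapped at 83.1 and 77.9 CPM in sorted P-bodies, against 81.2 and 80.2 CPM in cytosol, while its relative USP25, of the signalling group, rose (log2 fold change 0.74 ± 0.12).

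USP45, a relative of USP16 that acts on the repair nuclease ERCC1, had 65.8 and 85.7 CPM in sorted P-bodies, against 48.0 and 48.7 CPM in cytosol, and USP40, a relative of USP47, had 42.9 and 44.8 CPM in sorted P-bodies, against 27.3 and 26.8 CPM in cytosol. Both rose, with log2 fold changes of 0.65 ± 0.13 for USP45 and 0.70 ± 0.10 for USP40. USP31 rose, with 124 and 127.3 CPM in sorted P-bodies, against 78.4 and 77.6 CPM in cytosol, while its relative USP43 had 9.745 and 9.02 CPM in sorted P-bodies, against 7.56 and 7.59 CPM in cytosol, and missed the threshold (log2 fold change 0.31 ± 0.14, edgeR adjusted p = 0.0809). The remaining members that rose were USP24, USP32, USP19, USP48 and USP3, with log2 fold changes of 1.11, 1.04, 0.37, 0.36 and 0.32.

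As CPM per kilobase of exonic length (RPKM, computed here from the counts), USP1 had a mean level of 138 RPKM in sorted P-bodies, against 45.98 RPKM in cytosol, and USP9X had 72.6 RPKM in sorted P-bodies, against 46.7 RPKM in cytosol. USP1 thus stood first in sorted P-bodies, while in cytosol it stood level with USP9X. USP24 had 57.2 RPKM in sorted P-bodies, against 26.6 RPKM in cytosol.

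Some calls needed both cytosol libraries. Without cytosol 1, and likewise without cytosol 2, 3 members were lower in place of 6: USP2, USP22 and USP30 no longer passed, with log2 fold changes of -0.30, -0.41 and -0.39 without cytosol 1 and -0.32, -0.36 and -0.41 without cytosol 2. The folds of these 3 thus hardly moved. In these fits the spread came from the sorted libraries alone, which differed from each other more than the cytosol libraries did. USP3, USP5, USP11, USP19 and USP48 no longer passed as higher in the same fits, nor with library size as the only scaling. Without cytosol 1 and without cytosol 2 the log2 fold change was 0.32 and 0.41 for USP5 and 0.36 and 0.47 for USP11, and with library size alone it was 0.18 and 0.23. That scaling gave 25 members higher and 9 lower, where 4256 and 6914 of 18745 genes were, and moved the median of all genes to -0.23. The members' median minus that of all genes was then 0.69.

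**Figure D1:**
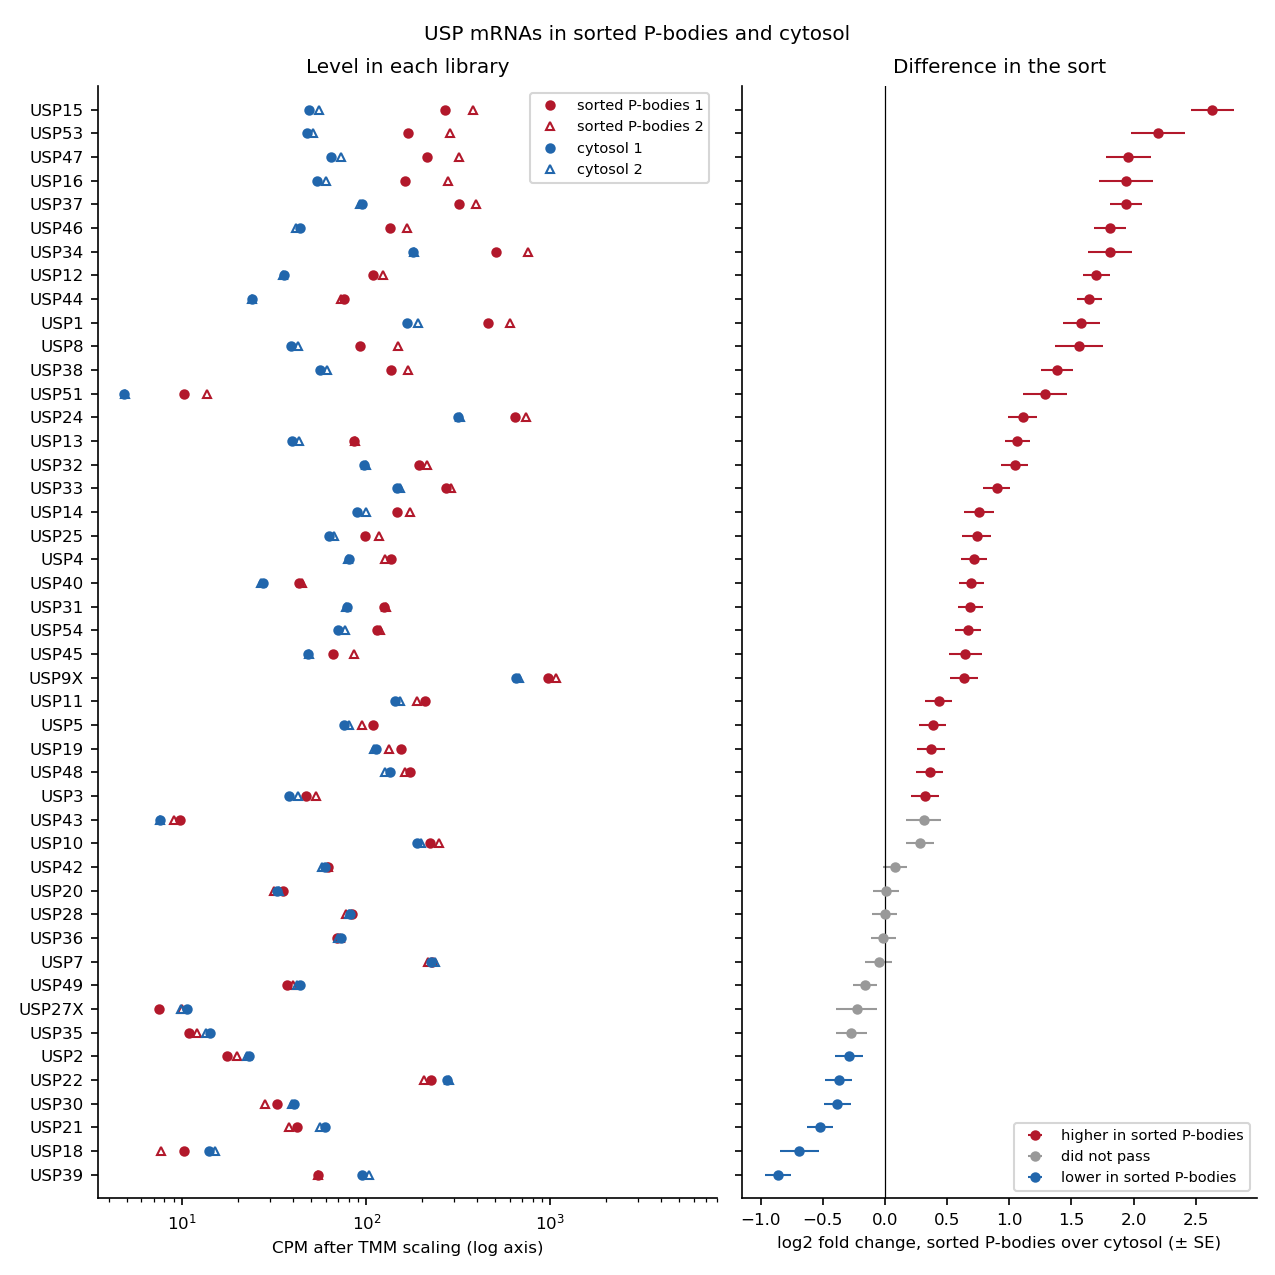
USP mRNAs in the sort. The left panel gives CPM in each library on a log axis (red, sorted P-bodies; blue, cytosol; circles, library 1; triangles, library 2) and the right panel the log2 fold change of sorted P-bodies over cytosol with its SE, for the 46 members tested; USP15 heads the order at 2.63 and USP39 ends it at -0.86.

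The members also differed in codon ending. Among the 24 tested members with under 50% of codons ending in G or C, 21 were higher in sorted P-bodies and none was lower. Among the 22 with 50% or more, 9 were higher and 6 lower. The same split of all protein-coding genes tested gave 63.4% higher and 12% lower of 4791 genes under 50%, and 16.2% higher and 45% lower of 8803 genes at 50% or more. The median log2 fold change of the members was 1.08 under 50% and 0.04 at 50% or more, against 0.64 and -0.32 for all protein-coding genes. Across the 46 members the log2 fold change and this share had a Pearson r of -0.72 and a Spearman rho of -0.73, a description over genes that share the same 4 libraries. Over 13594 protein-coding genes the values were -0.52 and -0.53. The share of G and C in the whole transcript went with the fold change as closely, at -0.72 and -0.76 over the members. Over the protein-coding genes it gave -0.55 and -0.57. For the coding sequence the members' values were -0.69 and -0.72, and for the 3′ UTR -0.575 and -0.61. Codon ending was thus not set apart from the base composition of the transcript as a whole. The 4 pairs whose windows are printed above each had the member with fewer codons ending in G or C higher in the sort: USP38 at 1.39 and USP35 at -0.27, USP44 at 1.64 and USP49 at -0.16, USP33 at 0.90 and USP20 at 0.01, and USP15 at 2.63 and USP4 at 0.72 (log2 fold changes). The pairs were chosen for this pattern, so they are an illustration and not a test of it. Not every related pair named above had it. USP46, with 50.8% of codons ending in G or C, was at 1.81, and USP12, with 35.7%, at 1.70. USP16, with 32.4%, was at 1.94, and USP45, with 31.2%, at 0.65.

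Codon ending also moved with the difference between the sorted libraries themselves. Across the members, the log2 ratio of sorted P-bodies 1 over 2 had a Pearson r of 0.63 and a Spearman rho of 0.67 with the share of codons ending in G or C. For cytosol 1 over 2 the Pearson r was 0.38. The median absolute log2 ratio of the members was 0.17 between the sorted libraries and 0.06 between the cytosol libraries. Within batches, r of the fold change with this share was -0.69 in batch 1 and -0.73 in batch 2, and the median under 50% was 1.01 and 1.14. Without sorted P-bodies 1 the members' median was 1.145 under 50% and 0.04 at 50% or more, and without sorted P-bodies 2 it was 0.97 and 0.06. Without cytosol 1 the medians were 1.04 and 0.04, and without cytosol 2 they were 1.08 and 0.03. The part of base composition in library preparation was not tested.

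**Figure D2:**
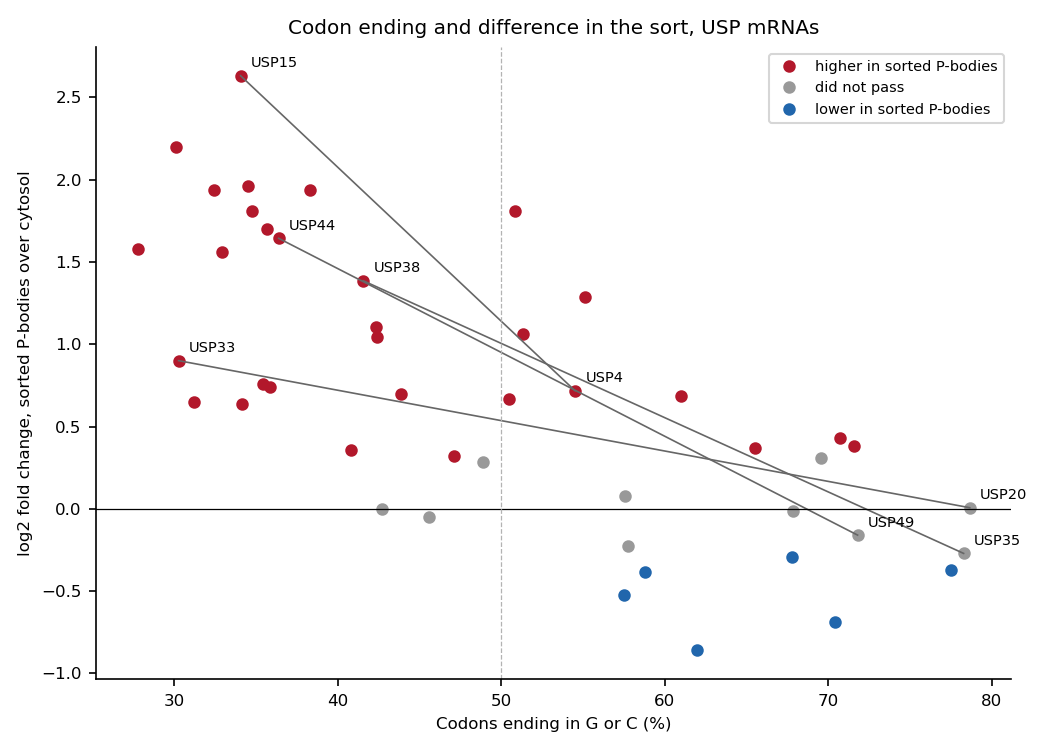
Share of codons ending in G or C (x axis, %) and log2 fold change of sorted P-bodies over cytosol (y axis) for the 46 USP mRNAs tested, coloured by call, with lines joining the 4 pairs named and a dashed line at 50%. No member left of 50% was lower in sorted P-bodies, and all 6 that were lower lie right of it.

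Length went the other way and less closely. The 30 members that were higher had a median transcript length of 5256 bases and a median 3′ UTR of 1808 bases. For the 6 lower members these were 3037 and 1100 bases, and for the 10 that did not pass 4564 and 1206 bases. The median of all protein-coding genes tested was 3146 bases for the transcript and 982 bases for the 3′ UTR. Pearson r of the fold change with transcript length was 0.45 over the 46 members and 0.43 over 13594 genes.

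Other genes of the ubiquitin system were counted from lists chosen by name. The OTU deubiquitinases had 10 higher and 2 lower of 15 tested (median log2 fold change 0.75). The 3 genes of the USP fold with other names, CYLD, USPL1 and PAN2, were all higher. The UCH enzymes had 1 higher and 1 lower of 4, the Josephins 1 and 1 of 3, the JAMM metalloproteases 2 and 1 of 7, the MINDY and ZUFSP enzymes 3 and 1 of 5, and the E1 enzymes 4 and 1 of 9. For comparison, 28.8% of all genes tested were higher and 29.0% lower. All 4 ubiquitin precursors were lower (median -1.51), with UBB, a polyubiquitin gene, at a mean of 166.4 CPM in sorted P-bodies, against 675.8 CPM in cytosol, and 22 of 34 E2 conjugating enzymes were lower and 8 higher (median -0.52). Among USP cofactors 6 of 11 were higher and 3 lower, and among substrates and partners 14 of 32 were higher and 10 lower.

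The A-to-I score, the edited reads as a share of a gene's reads, was higher in sorted P-bodies for most members. The members' median score was 10.04% and 10.1% in sorted P-bodies 1 and 2, against 4.12% and 3.60% in cytosol 1 and 2. For all listed genes the medians were 6.82% and 6.97% in sorted P-bodies, against 2.74% and 2.63% in cytosol. By edgeR's test on edited and unedited reads, 40 of 46 members were higher and none lower at an adjusted p under 0.05, where 73.5% of the 11303 genes tested were higher and 1.08% lower. At an unadjusted p under 0.05, 40 members differed, where 8612 of 11303 genes did. Limma on log2 scores also gave 40 members higher and none lower, with 8025 higher and 338 lower of all genes. After each library was centred on its median, 6 members were higher and 6 lower, against 16.9% higher and 12.4% lower of all genes. The members' median log2 odds ratio was 1.47, against 1.46 for all genes.

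USP12 had the highest A-to-I score of the family in both sorted libraries, and USP15 in both cytosol libraries. The USP12 score was 23.4% and 23.98% in sorted P-bodies (381 of 1628 and 354 of 1476 reads, exact 95% binomial intervals 21.4 to 25.5% and 21.8 to 26.2%), against 9.67% and 9.29% in cytosol. USP15, the member most raised in abundance, had 18.3% and 17.7% in sorted P-bodies, against 11.2% and 9.43% in cytosol. Its log2 odds ratio of 0.94 ± 0.15 was below the median of all genes, and after centring it was lower (-0.47 ± 0.14, edgeR adjusted p = 0.0163). These intervals, and the limits set by a count of 0, hold counting error alone, as PCR copies of a molecule are counted as separate reads.

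The largest rise was that of USP39, the member with the strongest fall in abundance. Its A-to-I score was 2.68% and 3.59% in sorted P-bodies (23 of 858 and 24 of 669 reads), against 0.266% and 0.0975% in cytosol (5 of 1882 and 2 of 2051 reads). The groups were far apart relative to their spread, with a log2 odds ratio of 4.11 ± 0.48 (edgeR adjusted p = 1.05e-06), and 2.73 ± 0.50 after centring. USP10, near the threshold in abundance, rose in both editors. Its A-to-I score was 15.2% and 16.2% in sorted P-bodies, against 3.38% and 3.58% in cytosol (log2 odds ratio 2.37 ± 0.14, after centring 0.96 ± 0.12, edgeR adjusted p = 9.64e-06). USP30, lower in abundance, had 10.2% and 14.9% in sorted P-bodies, against 2.30% and 2.81% in cytosol (log2 odds ratio 2.41 ± 0.30). USP32 had 14.6% and 15.1% in sorted P-bodies, against 4.20% and 3.73% in cytosol, and USP25 had 5.79% and 5.99% in sorted P-bodies, against 1.75% and 1.27% in cytosol. USP51 had few reads, with 4 of 163 and 9 of 159 edited in sorted P-bodies, against 1 of 103 and 0 of 104 in cytosol, and it lost its call without sorted P-bodies 2, without cytosol 2 and with the batch as a block. After centring the members that were higher were USP10, USP16, USP30, USP32, USP39 and USP54.

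USP5 and USP11, both higher in abundance, did not pass in score. USP5 overlapped, with 3.25% and 3.54% in sorted P-bodies, against 3.80% and 2.51% in cytosol (log2 odds ratio 0.11 ± 0.25). USP11 had 3.96% and 4.79% in sorted P-bodies, against 3.32% and 3.53% in cytosol and did not pass (0.35 ± 0.17, edgeR adjusted p = 0.0728). After centring both were lower, at -1.29 ± 0.24 for USP5 and -1.06 ± 0.16 for USP11, and so were USP4, USP9X, USP15 and USP19. USP9X had 7.95% and 8.83% in sorted P-bodies, against 4.71% and 4.52% in cytosol, higher before centring (0.92 ± 0.11) and lower after it (-0.49 ± 0.09). The other members that did not pass before centring were USP18, USP27X, USP35 and USP43, each with at most 327 reads in any library.

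**Figure D3:**
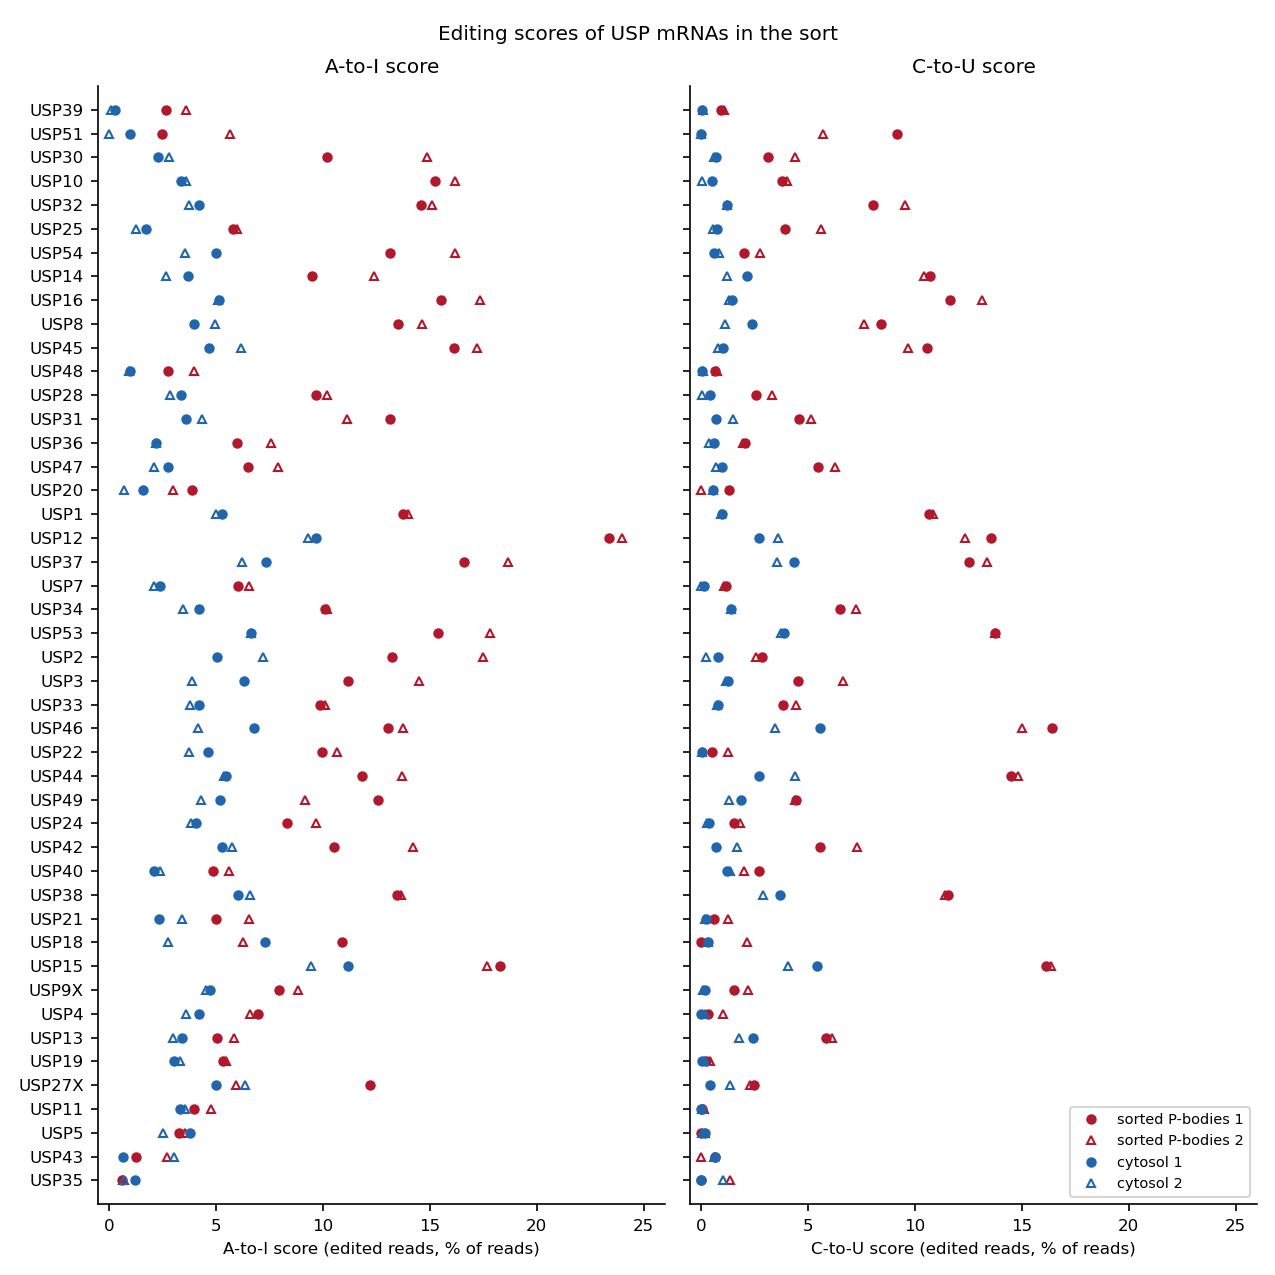
A-to-I score (left) and C-to-U score (right) of the 46 USP mRNAs listed, as a percentage of reads, in sorted P-bodies (red) and cytosol (blue), with circles for library 1 and triangles for library 2, ordered by the A-to-I log2 odds ratio. Most members lie to the right in sorted P-bodies in both panels, while USP5, USP35 and USP43 at the foot overlap or nearly so.

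The C-to-U score gave a like picture at lower levels. The members' median was 3.81% and 4.38% in sorted P-bodies, against 0.719% and 0.774% in cytosol, where all listed genes had 2.21% and 2.50% in sorted P-bodies, against 0.546% and 0.522% in cytosol. Of 46 members 37 were higher and none lower, where 68.0% of the 10613 genes tested were higher and 0.292% lower. At an unadjusted p under 0.05, 37 members differed, where 7529 of 10613 genes did. Limma gave 36 members higher and none lower, with 7022 higher and 275 lower of all genes. After centring 6 were higher and none lower, against 13.7% and 3.62% of all genes. These 6 were USP1, USP9X, USP10, USP16, USP32 and USP45. The members' median log2 odds ratio was 2.27, against 2.33 for all genes.

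USP1 had the smallest adjusted p of the members. Its score was 10.7% and 10.8% in sorted P-bodies, against 1.00% and 0.937% in cytosol, a log2 odds ratio of 3.62 ± 0.28 (edgeR adjusted p = 1.83e-06) and 1.46 ± 0.24 after centring. USP46 had the highest score of the family in sorted P-bodies 1, at 16.4% and 15.0% in sorted P-bodies, against 5.57% and 3.47% in cytosol (1.97 ± 0.27), and it did not differ after centring (-0.18 ± 0.26, edgeR adjusted p = 0.679). USP15, highest in sorted P-bodies 2, had 16.1% and 16.4% in sorted P-bodies, against 5.44% and 4.06% in cytosol. USP10 had 3.80% and 4.04% in sorted P-bodies, against 0.514% and 0.0510% in cytosol (3.88 ± 0.50), and USP9X had 1.53% and 2.20% in sorted P-bodies, against 0.185% and 0.0845% in cytosol (3.80 ± 0.42). USP9X was thus higher after centring by C-to-U (1.65 ± 0.39) and lower after centring by A-to-I. The p53 regulator USP7 had 41 of 3479 and 29 of 2655 reads edited in sorted P-bodies, against 7 of 4493 and 1 of 4802 in cytosol (3.70 ± 0.57). USP22 had 16 of 3230 and 31 of 2434 reads edited in sorted P-bodies, against 3 of 5375 and 2 of 5576 in cytosol (4.14 ± 0.69). USP51 had 15 of 164 and 9 of 158 reads edited in sorted P-bodies, against 0 of 104 and 0 of 103 in cytosol. A count of 0 allows up to 1.45% over the cytosol libraries together, taking 3 reads as the limit. The pooled score of 7.45% in sorted P-bodies was 5.14-fold higher than that limit, leaving aside its own counting error. After centring USP51 did not pass (5.07 ± 1.97, edgeR adjusted p = 0.108). With either sorted library left out, USP51 had edited reads in 1 library only and was not tested.

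USP39 again had a low score, with 0.933% and 1.05% in sorted P-bodies, against 0.0532% and 0.0977% in cytosol (3.60 ± 0.75, edgeR adjusted p = 0.0011). The smallest rises that passed were those of USP49, at 4.46% and 4.39% in sorted P-bodies, against 1.85% and 1.33% in cytosol (1.52 ± 0.38), and USP13, at 5.86% and 6.13% in sorted P-bodies, against 2.44% and 1.76% in cytosol (1.57 ± 0.32). USP5 and USP11 had almost no C-to-U edits. USP5 had 0 of 1666 and 2 of 1153 reads in sorted P-bodies, against 3 of 1546 and 1 of 1637 in cytosol, and USP11 had 2 of 3218 and 3 of 2317 in sorted P-bodies, against 0 of 2982 and 1 of 3203 in cytosol. Neither passed, with log2 odds ratios of -0.76 ± 1.33 for USP5 and 2.21 ± 1.32 for USP11. With so few edited reads the SEs were wide.

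In the knockdown, EDC4 itself was checked first. Its sort level was 80.7 and 72.6 CPM in sorted P-bodies, against 64.3 and 67.2 CPM in cytosol (log2 fold change 0.22 ± 0.10, edgeR adjusted p = 0.0984). After knockdown it had 245 and 186 reads in siEDC4 and 684 and 609 reads in siNC, or 40.3 and 32.6 CPM in siEDC4 and 109.8 and 106.1 CPM in siNC (log2 fold change -1.56 ± 0.14, edgeR adjusted p = 2.63e-25). The siNC libraries differed in their reads by close to sampling noise, with a chi-square per degree of freedom of 1.02 (p = 0.062 with the reads listed for A-to-I and 0.047 with those for C-to-U), and were counted as 1 sample. For siEDC4 it was 3.46 and 3.48. The siNC edited reads differed by more, at 1.30 and 1.31 (chi-square p = 5.3e-38 and 2.5e-51), but were summed in the editing tests as well. The main knockdown tests thus set 2 siEDC4 libraries against 1 summed sample, with the spread taken from the siEDC4 libraries alone. With siNC kept as 2 libraries and no block, 0 members passed in reads or in either score.

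No USP mRNA passed the test on reads after EDC4 knockdown. Of 44 members tested, 0 had more and 0 fewer reads, where 0.432% of 10642 genes had more and 0.132% fewer. At an unadjusted p under 0.05, 2 members differed, where 786 of 10642 genes did, and DESeq2 on 4 libraries also called no member. The members' summed level was 5356 and 5291 CPM in siEDC4 and 5551 and 5573 CPM in siNC, and their log2 fold changes ran from -0.34 to 0.19. The 2 were USP22 and USP30. USP22 had 313.0 and 422.5 CPM in siEDC4 and 442.5 and 444.0 CPM in siNC (-0.27 ± 0.11, unadjusted p = 0.012, edgeR adjusted p = 0.423), and USP30 had 27.1 and 33.9 CPM in siEDC4 and 39.3 and 38.0 CPM in siNC (-0.34 ± 0.17). In both members each siEDC4 library lay below each siNC library, and siEDC4 1 lay below siEDC4 2. USP12 had 83.2 and 73.9 CPM in siEDC4 and 69.5 and 68.1 CPM in siNC (0.19 ± 0.13). USP28 had 105.3 and 98.3 CPM in siEDC4 and 110.4 and 116.7 CPM in siNC, and USP48 had 141.1 and 164.3 CPM in siEDC4 and 170.3 and 176.4 CPM in siNC. These last 3 members, named for their small p, did not overlap between the groups, and none passed. Lack of overlap was common among the other members too. USP15 and USP34, raised in the sort, overlapped, with 87.3 and 86.0 CPM in siEDC4 and 86.5 and 85.3 CPM in siNC for USP15, and 265.4 and 236.5 CPM in siEDC4 and 246.7 and 256.0 CPM in siNC for USP34.

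The fold changes depended on which siEDC4 library was used. With siEDC4 1 left out, the log2 fold change was -0.27 for USP49, -0.25 for USP36, -0.21 for USP28, -0.19 for USP10, -0.15 for USP7 and -0.10 for USP9X. With siEDC4 2 left out it was -0.51 for USP30, -0.50 for USP22, -0.30 for USP48 and -0.22 for USP49. In the same fit it was 0.27 for USP12 and 0.20 for USP53. The members' median was -0.07 without siEDC4 1 and -0.01 without siEDC4 2. That of all genes was -0.001 and 0.0002. In these fits the spread came from the siNC libraries, which differed by close to sampling noise, and the lone siEDC4 library was assumed to vary like them. USP49 was lower in both fits, with 70.2 and 67.6 CPM in siEDC4 and 83.1 and 80.0 CPM in siNC. With the batch as a block and 4 libraries USP22 alone of the members had fewer reads (edgeR adjusted p = 0.0018), where 218 of 10639 genes had fewer.

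**Figure D4:**
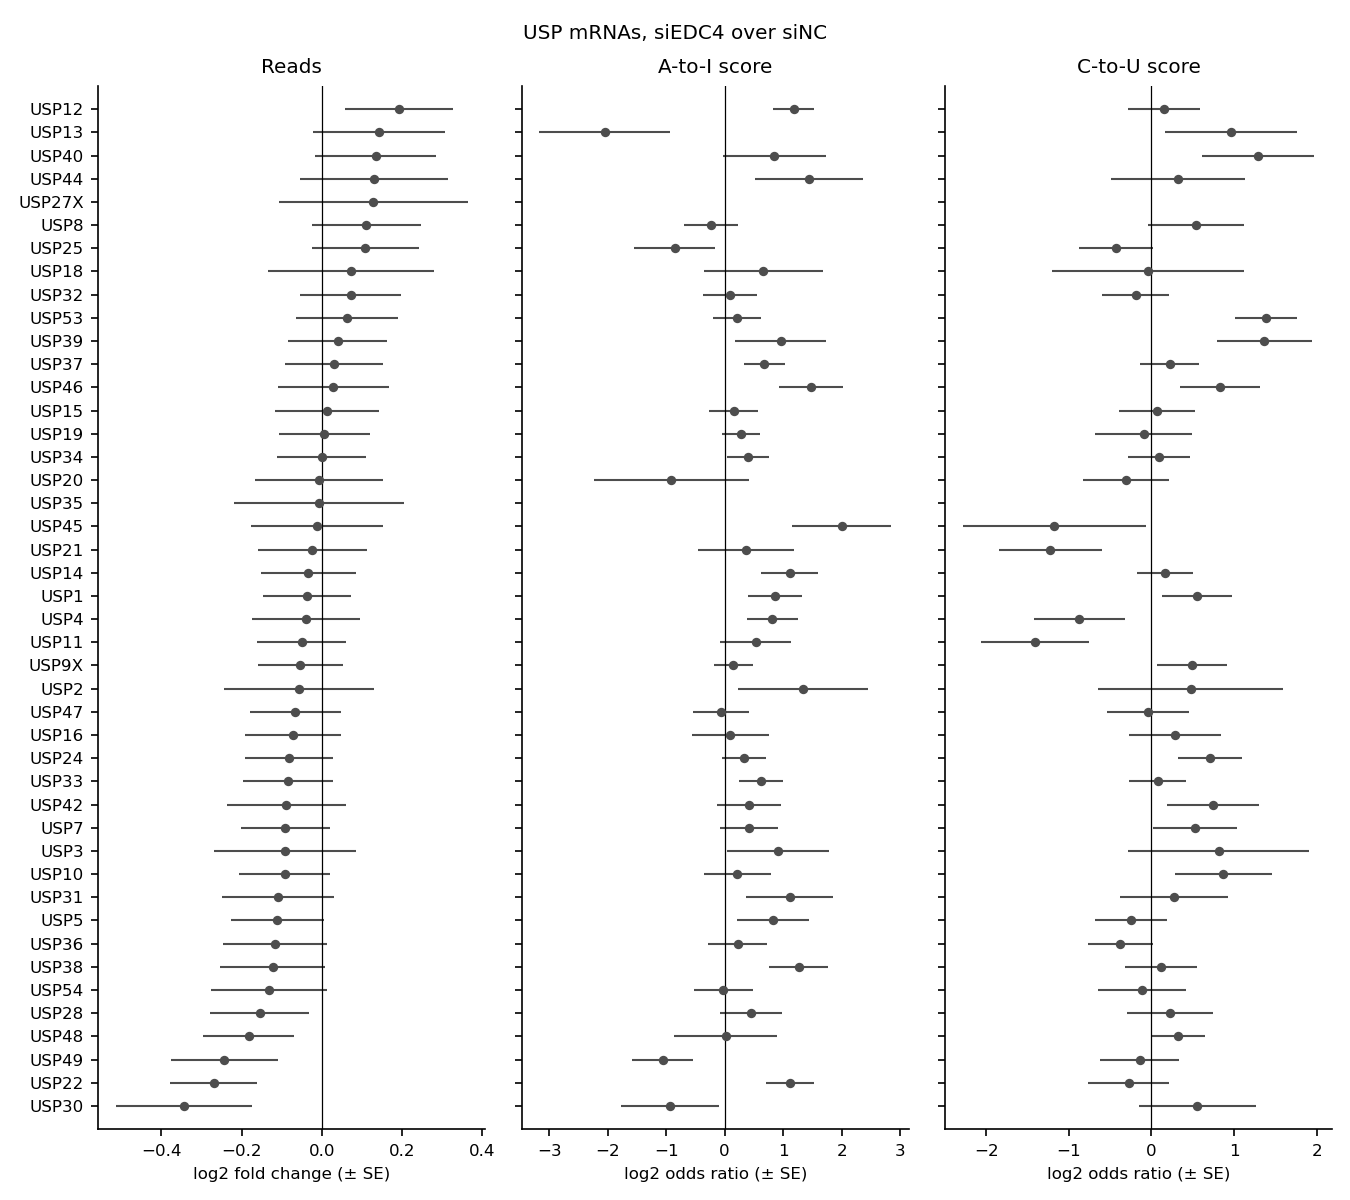
Change of the 44 USP mRNAs after EDC4 knockdown, siEDC4 over siNC, as log2 fold change of reads (left) and log2 odds ratio of the A-to-I score (middle) and C-to-U score (right), each with its SE. No member passed in any panel, and the scales of the panels differ; USP27X and USP35 had no edited read and carry no odds ratio.

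Editing scores after the knockdown were low and uncertain. The members' median A-to-I score was 1.54% and 1.79% in siEDC4 and 1.16% in both siNC libraries, and the median C-to-U score 2.34% and 2.11% in siEDC4 and 1.79% and 1.78% in siNC. For A-to-I 0 of 42 members were higher and 0 lower, with a background of 0% and 0% of 9157 genes, and for C-to-U 0 of 42 were higher and 0 lower, with 0% and 0% of 9646 genes. At an unadjusted p under 0.05, 4 members differed in A-to-I, where 491 of 9157 genes did, and 2 in C-to-U, where 377 of 9646 did. Limma on log2 scores of 4 libraries called none in either. The median log2 odds ratio of the members was 0.42 for A-to-I and 0.19 for C-to-U, against 0.31 and 0.20 for all genes.

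The 4 with an unadjusted p under 0.05 in A-to-I were USP12, USP22, USP38 and USP46, all with higher scores in siEDC4. Of all genes tested, 68.7% had a log2 odds ratio above 0. After each library was centred on its median, edgeR's unadjusted p for these 4 was 0.06, 0.091, 0.11 and 0.076. The 1 member then under 0.05 was USP49, lower in siEDC4 (-1.41 ± 0.51, unadjusted p = 0.032). USP12 had 76 of 506 and 46 of 421 reads edited in siEDC4 and 36 of 433 and 15 of 391 in siNC, or 15.0% and 10.9% in siEDC4 and 8.31% and 3.84% in siNC (unadjusted p = 0.013, edgeR adjusted p = 0.845). USP22 had 1.05% and 0.914% in siEDC4 and 0.218% and 0.706% in siNC, USP46 had 2.69% and 3.69% in siEDC4 and 0.716% and 1.60% in siNC, and the score of USP38 was 2.55% and 3.80% in siEDC4 and 1.34% and 1.33% in siNC. In each of these the groups did not overlap, but the adjusted p was far from the threshold. Many other members did not overlap either, and these were picked by p, so the lack of overlap is no further support. The next by p were USP45, with 2.08% and 3.37% in siEDC4 and 0.820% and 0.465% in siNC, and USP14, with 2.57% and 1.76% in siEDC4 and 1.42% and 0.567% in siNC. In C-to-U the members were USP53, with 6.54% and 5.85% in siEDC4 and 3.08% and 1.76% in siNC (1.39 ± 0.37, unadjusted p = 0.0047, edgeR adjusted p = 0.996), and USP39, with 2.60% and 1.47% in siEDC4 and 0.312% and 1.29% in siNC. The next by p were USP11, USP21, USP40 and USP24. USP11 had 0.223% and 0.229% in siEDC4 and 0.616% and 0.595% in siNC, lower without overlap, and USP21 overlapped at 0.973% and 0.771% in siEDC4 and 0.952% and 3.17% in siNC. USP40 had 2.11% and 2.87% in siEDC4 and 1.39% and 0.645% in siNC, and USP24 had 2.35% and 1.89% in siEDC4 and 1.43% and 1.17% in siNC. A p that misses the threshold does not show that scores were equal: for USP10 the A-to-I log2 odds ratio was 0.22 ± 0.58, an SE wide enough to hide a sizeable change.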

How the data were processed

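Per the submitters' processing notes, the authors used the build hg38, the aligner STAR 2.7.9a, featureCounts 2.0.1, the trimmer cutadapt 1.18 and FastQC 0.11.9. The annotation, strand setting, treatment of reads with several matches and calling of edited sites are among what is not given in the sources used. The deposited count table of the sort holds raw counts per gene. Per the file headers, each editing table holds a gene's edited reads as counts, its reads (treated as estimated counts, though whole on every line used, so that no rounding was needed) and the authors' score, the fraction of reads that carry an edit. The score equalled edited reads over reads within 5.0e-08. From each table of editing scores, 3 broken lines were left out.

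Members are the symbols made of USP, a number and at most a final X. The members, role groups and other gene lists were chosen with earlier results of these data known. Named genes were, in the sort, the 10 largest rises and falls among members that passed and the 4 nearest to 0, and per editing table the 6 largest; in the knockdown, the 6 with the smallest p; a fixed list of members, related pairs and EDC4 were named always.

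Differences were tested with edgeR 4.0.16 (R 4.3.3; quasi-likelihood, TMM scaling, its filter on low counts) over all genes, p-values adjusted by Benjamini-Hochberg and called under 0.05. Editing was tested on edited and unedited reads with a term per library, giving a log2 odds ratio, for genes edited in 2 libraries or more. SEs were taken from the estimate and its F value. In the main knockdown tests the siNC libraries were summed to 1 sample, so the spread came from the siEDC4 libraries alone. The fits were tested on simulated data. Alternatives used limma 3.58.1 on log2 scores plus a pseudocount (1.19% and 0.233% in the sort and 0.452% and 0.578% in the knockdown, for A-to-I and C-to-U), DESeq2 1.42.0, other scalings and filters, left-out libraries, and a block for the batch that the labels give to same-numbered libraries. Same-numbered libraries hardly deviated together, with correlations over genes of -0.0352 to 0.0356. Transcript features come from GENCODE v29. Depths are given at the head of the results, and counting error at these depths limits genes with few edited reads most.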

Additional observations from a re-analysis of the deposited data

How the results depend on the processing

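The counts of USP mRNAs higher in the sort were 25 to 32 and those of lower ones 3 to 9 over the fits that each left out 1 library. The block for the batch, which pairs libraries by number, gave 30 higher and 5 lower, DESeq2 30 and 4, and no filter on low counts 29 and 6; library size as the only scaling gave 25 and 9, against 30 and 6. For A-to-I scores in the sort, centring gave 6 higher and 6 lower. It turned 18 of 46 members to the lower side, among them USP5 (-1.294), USP9X (-0.49) and USP22 (-0.01582), and also EDC4 (-1.008). With a library left out, the members' median log2 odds ratio was 1.40 to 1.61, against 1.42 to 1.54 for all genes. The block gave 39 members higher, where 8153 of 11303 genes were. For C-to-U scores centring gave 6 higher. It turned 15 of 46 members to the lower side, none of which passed, among them USP53 (-0.1452), USP54 (-0.4375), USP46 (-0.1824) and USP36 (-0.09759). With a library left out, the members' median log2 odds ratio for C-to-U was 2.197 to 2.461, against 2.195 to 2.537 for all genes. The block gave 37 members higher, where 7131 of 10613 genes were. After knockdown the block with 4 libraries gave 1 member with fewer reads, and left-out libraries 0 to 7 with fewer and 0 to 2 with more reads. No member passed in a knockdown editing score under any alternative run. Apart from USP2 and USP51 in the sort and USP22 in the knockdown, the block changed no call of a member. Centring turns directions by its own construction, as it sets each library's median gene to 0; the cause of the other changes was not tested. Cytosol scores that rest on under 5 edited reads limit the size of their fold. In each fit without a library, the spread came only from the group that kept both of its libraries.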
